A study of Homo sapiens with 8 samples.

Results

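HRAS and 9 genes that restrain or report ERK signalling were followed across 8 RNA-seq libraries: the dual-specificity phosphatases DUSP4, DUSP5 and DUSP6, the Sprouty genes SPRY1, SPRY2 and SPRY4, the Sprouty-related genes SPRED1 and SPRED2, and the ETS factor ETV5. They were taken by gene symbol from the deposited table, in which all 10 were present among 13842 genes, and all 10 passed the filter on low values. The study overexpressed the long noncoding RNA MALINC1 in 2 human breast lines, MCF10A and DCIS.COM. Each line was transduced with the lentiviral vector pLOC, either empty (pLOC-empty) or carrying MALINC1 (pLOC-MALINC1), and selected with blasticidin at 10 µg/mL, so the control cells of both lines also carried a pLOC vector. Each of the 4 groups had 2 libraries. MCF10A is a line of non-tumorigenic, immortalised breast epithelial cells, and DCIS.COM is a line that descends from MCF10A cells transformed with mutant HRAS and forms lesions resembling ductal carcinoma in situ when grafted. MCF10A cells were grown in a medium with 5% horse serum, EGF at 20 ng/mL, insulin, hydrocortisone and cholera toxin, whereas only 5% horse serum is named as a supplement for DCIS.COM, so cell line and medium cannot be told apart in any comparison between the lines. Each line was 1 population per vector as far as the labels tell, and nothing says that the 2 libraries of a group came from separate cultures. The p-values therefore measure the spread between these libraries, which may be technical.

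RAS proteins are membrane-bound GTPases that, when loaded with GTP, start the cascade of RAF, MEK and ERK kinases downstream of growth factor receptors such as that for EGF. Active ERK raises the transcription of its own inhibitors: DUSP phosphatases remove the activating phosphates from ERK, whereas Sprouty and SPRED proteins act upstream, at the level of receptors, RAS and RAF. The levels of these transcripts, together with ETV5 of the PEA3 group of ETS factors, are commonly used as a readout of ERK pathway output in epithelial cells.

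The libraries held between 20604377 and 37550457 reads on genes, of which the cytoplasmic RNAs RN7SL1 and RN7SL2 took between 8.22% and 15.7%. Members had between 7 and 8389 reads per library, and the replicates of a group differed by a median of 0.050 and at most 0.59 on the log2 scale. MALINC1 itself stood at 1.51 CPM or less (read counts scaled to a common library size) in both libraries of MCF10A pLOC-empty and at 13.2 and 11.7 CPM in MCF10A pLOC-MALINC1, and at 1.35 and 1.15 CPM against 24.5 and 19.2 CPM in DCIS.COM, so its level followed the labels in both lines. The 6 basal and epithelial markers examined were all present. Their summed level was 18253 to 25171 CPM in the MCF10A libraries and 2595 to 2932 CPM in the DCIS.COM libraries. With pLOC-empty, EPCAM and TP63 went against this sum, at means of 62.2 and 4.92 CPM in MCF10A and 280 and 56.6 CPM in DCIS.COM. The means of EPCAM and TP63 were also higher in DCIS.COM with pLOC-MALINC1. Those of KRT5, KRT14, KRT17 and CDH1 were lower in DCIS.COM with either vector. Within each line the sum was higher in both pLOC-MALINC1 libraries, at 24620 CPM or more against 18316 CPM or less in MCF10A and at 2830 CPM or more against 2653 CPM or less in DCIS.COM. Single markers did not all follow the sum: in DCIS.COM the means of KRT14, KRT17 and TP63 were 33.0, 970 and 56.6 CPM with pLOC-empty and 21.9, 807 and 49.6 CPM with pLOC-MALINC1, and in MCF10A TP63 stood at 4.92 and 40.9 CPM. Of the leukocyte, endothelial and fibroblast markers, 2 of 4, 1 of 3 and 1 of 4 were in the table, with summed levels of 4.11 to 14.3, 0.087 to 7.21 and 1.51 to 15.9 CPM, and the defining genes PTPRC, VWF and DCN were not analysed here. The endothelial value was that of PECAM1, which stood at 6.06 and 7.21 CPM in DCIS.COM pLOC-empty and at 0.087 and 0.177 CPM in DCIS.COM pLOC-MALINC1. The part of these markers in the results was not tested.

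With MALINC1 overexpression all 10 genes rose in MCF10A cells, most of all DUSP6, SPRY4 and SPRY1, whereas in DCIS.COM cells SPRY2 alone rose and HRAS, DUSP6, SPRED1 and ETV5 fell slightly. In MCF10A, 10 of 10 members were higher at an adjusted p under 0.01 (limma, Benjamini-Hochberg over all genes), where 21.5% of all genes were, and 5 of 10 were also more than 2-fold higher (DUSP5, DUSP6, SPRY1, SPRY2 and SPRY4), where 2.99% of all genes were. For all 10, both pLOC-MALINC1 libraries were above both pLOC-empty libraries, as for 38.8% of all genes. In DCIS.COM, 1 of 10 was higher, where 16.4% of all genes were, and 4 of 10 were lower, where 16.7% were. No member changed more than 2-fold in DCIS.COM in the limma test, where 1.44% of genes rose and 3.08% fell by that much. That count was also 0 at an unadjusted p under 0.05 and with voom weights (limma on the recovered reads). At any size, 6 members had an unadjusted p under 0.05, a threshold for which the share of all genes was not computed. The median log2 fold change of the members was 0.84 in MCF10A and -0.16 in DCIS.COM, beside 0 and 0.01 for all genes. The response itself differed between the lines: the log2 fold change was lower in DCIS.COM than in MCF10A for 10 of 10 members in the interaction test, where 20.3% of all genes were, and for 4 of them by more than 2-fold, where 5.22% of all genes were. With pLOC-MALINC1, MALINC1 itself was 1.73-fold higher in DCIS.COM than in MCF10A (adjusted p = 0.00187, limma). Its own response differed by 0.77 ± 0.27, which did not pass (adjusted p = 0.0299, limma). The part of the MALINC1 level in the responses of the members was not tested. The counts of members describe bulk RNA, in which fewer cells that express a gene and less RNA per cell cannot be told apart.

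**Figure D1:**
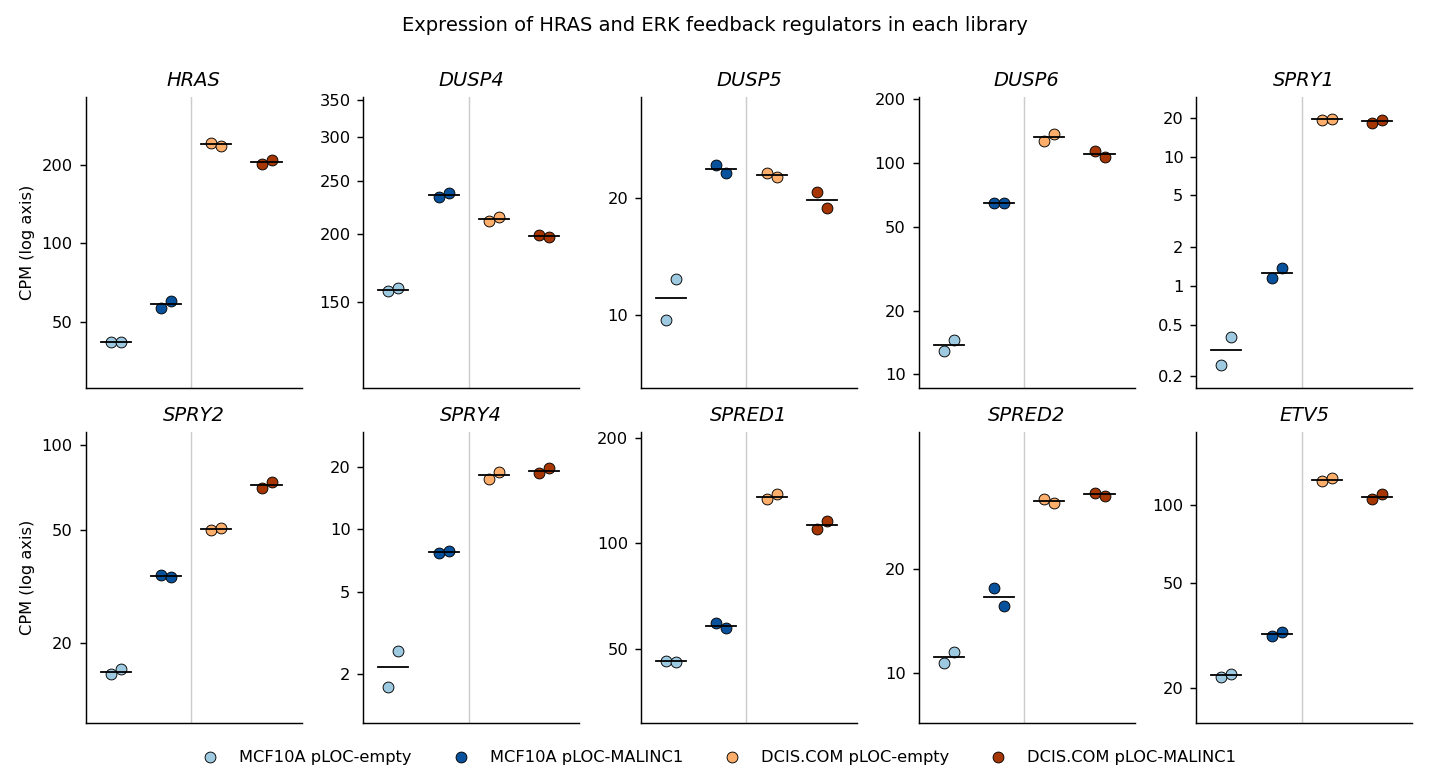
Level of each gene in CPM (log axis, scaled per panel) in the 8 libraries, with points for libraries, short lines for group means and 2 libraries per group. All 10 genes lie higher in both MCF10A pLOC-MALINC1 libraries than in both MCF10A pLOC-empty libraries, and in pLOC-empty cells all lie higher in DCIS.COM than in MCF10A.

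HRAS, on chromosome 11 (GRCh37 chr11:532242-537321, minus strand), encodes the RAS GTPase whose mutant form was used to derive DCIS.COM. It stood at 41.8 and 41.7 CPM in MCF10A pLOC-empty and at 56.3 and 60.1 CPM in MCF10A pLOC-MALINC1, against 243 and 235 CPM in DCIS.COM pLOC-empty and 202 and 208 CPM in DCIS.COM pLOC-MALINC1. The 4 groups did not overlap, and every DCIS.COM library was above every MCF10A library. The rise in MCF10A was 0.48 ± 0.04 on the log2 scale (SE; adjusted p = 9.45e-07, limma), which is 1.39-fold. In DCIS.COM the gene fell by 0.22 ± 0.04 (adjusted p = 0.000635), and the 2 responses differed by -0.70 ± 0.06 (adjusted p = 7.98e-07). HRAS was 5.73-fold higher in DCIS.COM than in MCF10A with pLOC-empty and 3.52-fold higher with pLOC-MALINC1. Gene-level counts hold no allele, so reads of the introduced HRAS and of the endogenous gene cannot be told apart. The gene shares 21 nt of exon with a gene model on the opposite strand that is not in the table, and whether reads were counted by strand was not stated.

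The promoters of HRAS, of DUSP6 (the gene with the largest rise in MCF10A) and the second of 2 SPRY1 promoters are given because they show both extremes among the member promoters examined for 2 motifs: the ETS site CCGGAAG, the kind of element that ETS factors such as ETV5 bind, and the GC box GGGCGG of SP factors. The sequences are the 250 bases before the transcription start in RefSeq (table build GRCh38.p14), placed by exact match in GRCh37, with matches on either strand in capitals, and none of the capital stretches holds overlapping matches.
HRAS promoter, chr11:535577-535826, minus strand: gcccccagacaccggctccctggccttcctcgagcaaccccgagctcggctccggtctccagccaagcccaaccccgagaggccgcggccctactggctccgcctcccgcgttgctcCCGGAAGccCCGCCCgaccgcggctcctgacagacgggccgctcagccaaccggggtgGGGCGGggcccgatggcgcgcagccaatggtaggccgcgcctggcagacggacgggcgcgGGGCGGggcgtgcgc
SPRY1 promoter 2, chr4:124319291-124319540, plus strand: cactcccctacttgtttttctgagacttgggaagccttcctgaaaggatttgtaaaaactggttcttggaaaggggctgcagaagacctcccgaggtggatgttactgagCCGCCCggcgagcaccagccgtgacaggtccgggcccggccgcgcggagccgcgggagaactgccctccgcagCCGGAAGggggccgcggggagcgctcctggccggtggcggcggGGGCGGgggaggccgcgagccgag
DUSP6 promoter, chr12:89746279-89746528, minus strand: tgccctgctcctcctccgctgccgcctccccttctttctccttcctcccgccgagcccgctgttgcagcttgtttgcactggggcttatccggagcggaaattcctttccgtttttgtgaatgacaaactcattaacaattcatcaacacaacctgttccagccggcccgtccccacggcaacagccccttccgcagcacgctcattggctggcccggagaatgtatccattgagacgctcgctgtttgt
The HRAS window holds 1 ETS match and 3 GC boxes with a GC content of 77.2%, and the SPRY1 window holds 1 and 2 with 68% GC. The DUSP6 window holds neither of these exact strings, with 57.2% GC, and variants of the strings were not searched. RefSeq promoters were matched for 7 of 10 members, 11 promoters in all, and these 2 were the only ones among the 11 with the ETS letters, which occur in 8.52% of 35116 promoters of the same length. The GC box letters occurred in 5 of the 11 windows (HRAS, SPRED1, SPRY1, SPRY2 and SPRY4) and in 42.6% of all. None of the 11 windows held the AP-1 site TGAGTCA (4.20% of all), the cyclic AMP response element TGACGTCA (1.65%) or a CArG box (1.16%). A match describes letters, not binding.

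DUSP6, on chromosome 12 (chr12:89741012-89746278, minus strand), encodes a cytoplasmic phosphatase selective for ERK and changed more than any other member in MCF10A. Its level was 12.9 and 14.6 CPM in MCF10A pLOC-empty and 64.9 and 65.0 CPM in MCF10A pLOC-MALINC1, a 4.72-fold rise (log2 fold change 2.24 ± 0.06, adjusted p = 4.86e-11, limma). In DCIS.COM it stood at 127 and 137 CPM with pLOC-empty and 114 and 107 CPM with pLOC-MALINC1, a fall of 0.26 ± 0.06 (adjusted p = 0.00330). The 2 groups of each line did not overlap, and the responses differed by -2.50 ± 0.08 (adjusted p = 3.18e-10), a larger difference than for any other member. The MCF10A mean was 10.4% of the DCIS.COM pLOC-empty mean with pLOC-empty and 49.1% of it with pLOC-MALINC1. DUSP6 shares 1105 nt of exon with a gene model on the opposite strand that is not in the table, so reads of the 2 cannot be told apart without strand.

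DUSP4 and DUSP5 encode nuclear phosphatases of the same family, DUSP5 being specific for ERK. DUSP5 (chr10:112257665-112271291, plus strand) stood at 9.69 and 12.4 CPM in MCF10A pLOC-empty and 24.4 and 23.2 CPM in MCF10A pLOC-MALINC1, and at 23.2 and 22.7 CPM against 20.8 and 18.8 CPM in DCIS.COM. It rose 2.16-fold in MCF10A (adjusted p = 1.92e-06, limma; under 2-fold without pLOC-empty replicate 1, at 0.94 on the log2 scale, as was its difference between the lines with pLOC-empty, at 0.89), whereas its DCIS.COM value of -0.21 ± 0.10 did not pass (adjusted p = 0.101) although both pLOC-MALINC1 libraries were below both pLOC-empty ones. DUSP4 (chr8:29190581-29208201, minus strand) stood at 157 and 159 CPM against 234 and 237 CPM in MCF10A, and at 211 and 215 CPM against 199 and 197 CPM in DCIS.COM. It rose 1.49-fold in MCF10A (adjusted p = 2.04e-08), and its DCIS.COM value of -0.10 ± 0.03 did not pass (adjusted p = 0.0153). For both genes the MCF10A pLOC-MALINC1 mean was close to the DCIS.COM pLOC-empty mean, at 104% of it for DUSP5 and 111% for DUSP4.

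The Sprouty genes encode membrane-associated adaptors that restrain receptor tyrosine kinase signalling to RAS. SPRY2 (chr13:80910111-80915261, minus strand) was the only member that rose in both lines: from 15.5 and 16.1 CPM to 34.6 and 34.1 CPM in MCF10A and from 50.1 and 51.0 CPM to 70.7 and 74.1 CPM in DCIS.COM. The rise was 2.17-fold in MCF10A (log2 fold change 1.12 ± 0.05, adjusted p = 3.03e-09, limma) and 1.43-fold in DCIS.COM (0.52 ± 0.05, adjusted p = 3.08e-06). It was larger in MCF10A, with a difference of -0.60 ± 0.07 (adjusted p = 1.51e-05). Its highest level was that of DCIS.COM pLOC-MALINC1, without overlap with any other group.

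SPRY4 (chr5:141689992-141706020, minus strand) stood at 1.72 and 2.57 CPM in MCF10A pLOC-empty and 7.69 and 7.86 CPM in MCF10A pLOC-MALINC1, a 3.60-fold rise (log2 fold change 1.85 ± 0.15, adjusted p = 6.48e-07, limma). In DCIS.COM the values of 17.5 and 19.0 CPM with pLOC-empty overlapped 18.7 and 19.7 CPM with pLOC-MALINC1 (0.08 ± 0.15, adjusted p = 0.704). SPRY1 (chr4:124317950-124324915, plus strand) was the least abundant member in MCF10A. It had 0.241 and 0.398 CPM there with pLOC-empty, from 7 and 9 reads, and 1.14 and 1.36 CPM with pLOC-MALINC1, from 41 and 36 reads. The rise was 3.44-fold (1.78 ± 0.18, adjusted p = 6.10e-06) on a scale with a prior count of 2 reads, which understates changes of low genes. With a larger pseudocount of 1 CPM it still passed, at 0.77 ± 0.10, but was below 2-fold, which left 4 of 10 members over 2-fold in MCF10A and 3 in the interaction. In DCIS.COM SPRY1 stood at 19.4 and 19.4 CPM with pLOC-empty and 18.4 and 19.3 CPM with pLOC-MALINC1 (-0.04 ± 0.18, adjusted p = 0.871). Its 50.8-fold difference between the lines with pLOC-empty was larger than that of any other member (5.67 ± 0.18 on the log2 scale, and 3.95 ± 0.10 with a pseudocount of 1 CPM), and its MCF10A mean was 1.65% of the DCIS.COM pLOC-empty mean with pLOC-empty and 6.45% of it with pLOC-MALINC1.

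SPRED1 and SPRED2 encode Sprouty-related membrane proteins, and SPRED1 is known for bringing the RAS GTPase-activating protein neurofibromin to the membrane. SPRED1 (chr15:38545037-38649450, plus strand) stood at 46.2 and 46.0 CPM against 59.3 and 57.3 CPM in MCF10A, and at 133 and 138 CPM against 110 and 116 CPM in DCIS.COM. It had the smallest rise of the 10 in MCF10A (0.34 ± 0.04, adjusted p = 2.13e-05, limma) and fell by 0.27 ± 0.04 in DCIS.COM (adjusted p = 0.000188). SPRED2 (chr2:65537985-65659771, minus strand) stood at 10.7 and 11.5 CPM against 17.6 and 15.6 CPM in MCF10A (0.57 ± 0.07, adjusted p = 3.14e-05), and at 31.9 and 31.0 CPM against 33.3 and 32.6 CPM in DCIS.COM (0.07 ± 0.07, adjusted p = 0.484). The replicates of SPRED2 in MCF10A pLOC-MALINC1 differed more than those of SPRED1, and the call for SPRED2 was lost when the 4 MCF10A libraries were fitted alone (adjusted p = 0.0126).

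ETV5 (chr3:185764103-185828107, minus strand) encodes a transcription factor of the PEA3 group that is induced by ERK. It stood at 21.9 and 22.6 CPM in MCF10A pLOC-empty, 31.5 and 32.5 CPM in MCF10A pLOC-MALINC1, 123 and 126 CPM in DCIS.COM pLOC-empty and 105 and 109 CPM in DCIS.COM pLOC-MALINC1. The 4 groups were ordered as for HRAS and did not overlap. The rise in MCF10A was 0.52 ± 0.04 (adjusted p = 8.76e-07, limma), the fall in DCIS.COM was -0.21 ± 0.04 (adjusted p = 0.00155), and the responses differed by -0.73 ± 0.06 (adjusted p = 1.05e-06). ETV5 shares 164 nt of exon with DGKG on the same strand, so its count is uncertain where reads fell there.

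The calls for the small falls in DCIS.COM depended on the processing. With reads scaled by plain library size, the median of all genes moved up by 0.12 on the log2 scale and only SPRY2 still passed, with -0.11 for HRAS, -0.14 for DUSP6, -0.15 for SPRED1 and -0.09 for ETV5. Leaving out 1 DCIS.COM library at a time left between 3 and 4 of the 5 calls: without pLOC-empty replicate 2 the calls for DUSP6 and ETV5 were lost, without pLOC-MALINC1 replicate 1 those for HRAS and ETV5, without pLOC-empty replicate 1 that for HRAS, and without pLOC-MALINC1 replicate 2 that for DUSP6. With the 4 DCIS.COM libraries fitted alone, 4 of the 5 calls remained and that for DUSP6 was lost (adjusted p = 0.0202, limma).

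**Figure D2:**
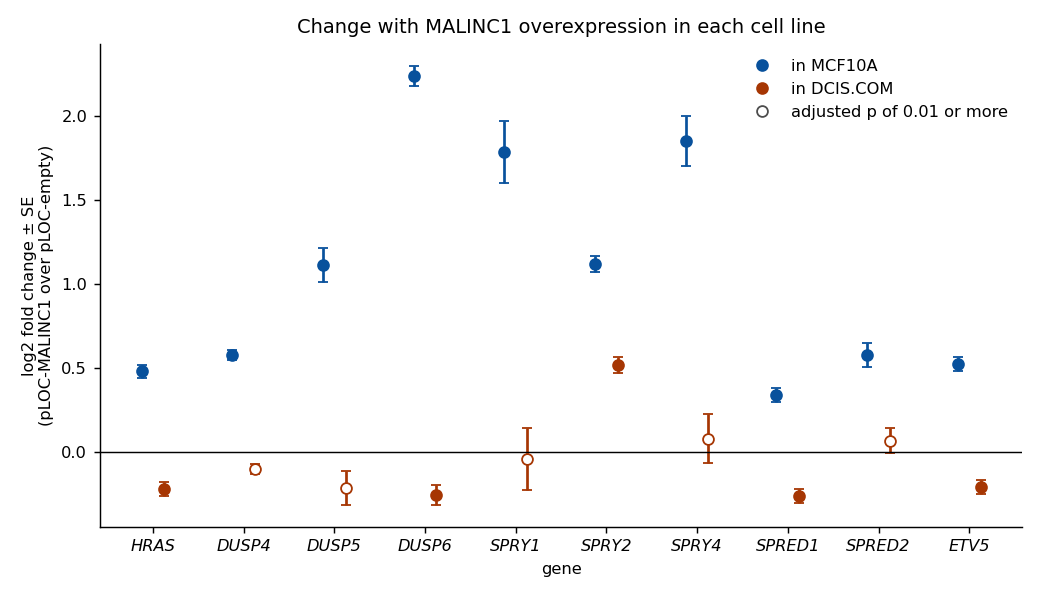
Log2 fold change (pLOC-MALINC1 over pLOC-empty) of each gene in MCF10A and DCIS.COM, with error bars for the standard error of the limma fit and open symbols for an adjusted p of 0.01 or more. All 10 MCF10A values lie above 0, between 0.34 and 2.24, and SPRY2 is the only gene with a filled symbol above 0 in DCIS.COM.

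Between the lines, cells with pLOC-empty had more RNA of all 10 members in DCIS.COM than in MCF10A, and the gap was smaller for each of them in cells with pLOC-MALINC1. With pLOC-empty, 10 of 10 members were higher in DCIS.COM (limma, adjusted p under 0.01), where 37.9% of all genes were, and 9 of 10 were more than 2-fold higher, where 15.6% of all genes were. For all 10, both DCIS.COM libraries were above both MCF10A libraries, as for 46.6% of all genes. DUSP4 was the exception, at 1.34-fold. With pLOC-MALINC1, 8 of 10 were higher in DCIS.COM, where 35.7% of all genes were, and 5 of 10 by more than 2-fold, where 14.4% were. DUSP4 was lower in DCIS.COM there (-0.25 ± 0.03, adjusted p = 7.56e-06, where 37.2% of all genes were lower), a call that was lost with library sizes that left out RN7SL1 and RN7SL2 (-0.07) and with plain library size (-0.05). The value for DUSP5 was -0.26 ± 0.10 and did not pass (adjusted p = 0.0280).

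The size of the gap differed widely among the members. The log2 fold change of DCIS.COM over MCF10A was 5.67 ± 0.18 for SPRY1 with pLOC-empty and 3.84 ± 0.18 with pLOC-MALINC1. In the same order it was 3.26 ± 0.06 and 0.77 ± 0.06 for DUSP6, and 3.07 ± 0.15 and 1.30 ± 0.15 for SPRY4. Among the rest it was 2.52 ± 0.04 and 1.82 ± 0.04 for HRAS, 2.48 ± 0.04 and 1.74 ± 0.04 for ETV5, and 1.67 ± 0.05 and 1.07 ± 0.05 for SPRY2. SPRED1 and SPRED2 stood at 1.56 and 1.50 with pLOC-empty and at 0.95 and 0.99 with pLOC-MALINC1. The smaller gap is the difference between the 2 responses given above, seen from the side of the lines, and is not a separate result. The median over the members was 2.08 with pLOC-empty and 1.03 with pLOC-MALINC1, beside 0.03 and 0.01 for all genes. Library sizes without RN7SL1 and RN7SL2 moved the median of all genes by 0.10 and 0.18 in these 2 comparisons.

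**Figure D3:**
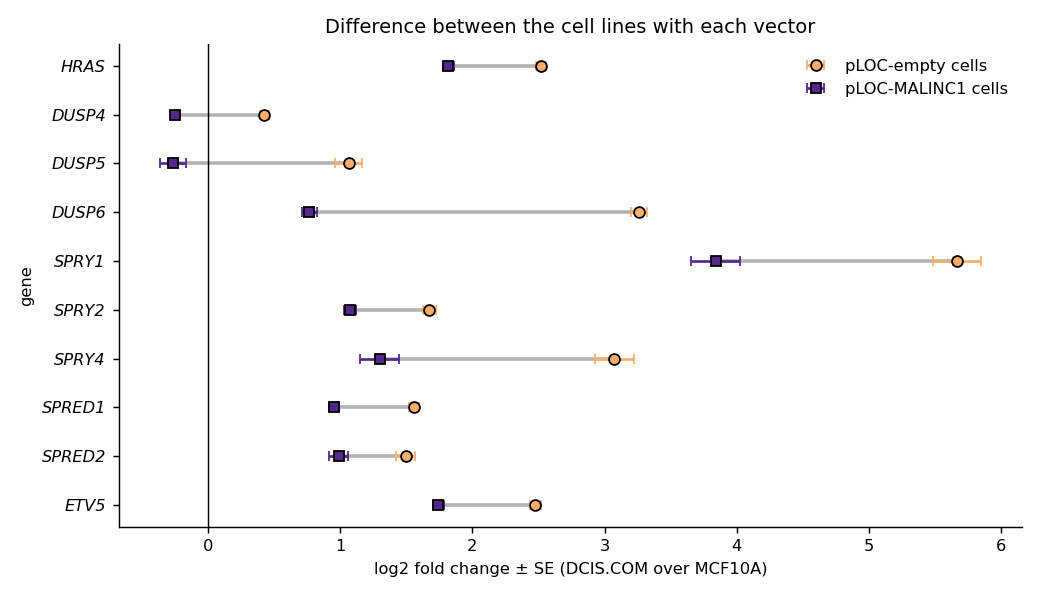
Log2 fold change of DCIS.COM over MCF10A for each gene in pLOC-empty cells (circles) and in pLOC-MALINC1 cells (squares), with error bars for the standard error of the limma fit and a grey line joining the 2 values. Every square lies to the left of its circle, and DUSP4 and DUSP5 cross 0.

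Per length of exon, the order of the members differed between the lines. HRAS was highest in both DCIS.COM groups, at 98.5 ± 2.34 CPM per kb with pLOC-empty and 84.4 ± 1.85 CPM per kb with pLOC-MALINC1 (SD, n = 2), whereas DUSP4 was highest in both MCF10A groups, at 21.8 ± 0.25 and 32.4 ± 0.32 CPM per kb. DUSP6 rose from seventh of the 10 in MCF10A pLOC-empty, at 3.56 ± 0.30 CPM per kb, to the third place in MCF10A pLOC-MALINC1, at 16.8 ± 0.024 CPM per kb, and took the second in both DCIS.COM groups, at 34.3 ± 1.85 and 28.7 ± 1.23 CPM per kb. In MCF10A pLOC-empty some neighbours in this order were no further apart than their spread: ETV5 and DUSP6 (3.86 ± 0.085 and 3.56 ± 0.30 CPM per kb), so that the seventh place of DUSP6 is not firm, and SPRY2 and DUSP5 (4.92 ± 0.12 and 4.36 ± 0.76 CPM per kb). SPRY1 was lowest in both MCF10A groups, at 0.081 and 0.316 CPM per kb, and SPRY4 in both DCIS.COM groups, at 2.78 and 2.93 CPM per kb.

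Profiles across the 8 libraries were compared by the Euclidean distance between log2 CPM values centred on each gene. ETV5 was the member nearest to HRAS (distance 0.12, Pearson's r = 0.9995), ahead of SPRED1 at 1.30, and genes close to it outside the members were PIR at 0.33 and FASN at 0.34. FASN, the fatty acid synthase, had group means of 139, 208, 941 and 826 CPM in the order MCF10A pLOC-empty, MCF10A pLOC-MALINC1, DCIS.COM pLOC-empty and DCIS.COM pLOC-MALINC1. The member nearest to DUSP6 was SPRY4 at 0.64, and outside the members LGALSL stood at 0.66 and MIR205HG at 0.72. LGALSL had group means of 9.39, 31.0, 82.1 and 53.2 CPM in the same order. The 8 points form 4 groups that share line and vector, so these likenesses describe the group pattern only.

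The other genes of the pathway were taken from 6 lists with 70 genes, of which 62 were in the table. In MCF10A, 17 of the 62 (27.4%) were higher with MALINC1 and 10 (16.1%) were lower, where 21.5% and 18.1% of all genes were. In DCIS.COM 11 (17.7%) were higher and 15 (24.2%) lower, where 16.4% and 16.7% of all genes were. With plain library size 14 were higher and 9 lower in DCIS.COM. At that setting 73.6% of all passing genes were higher there, against 49.5% in the main fit, so the balance moved with that of all genes. Most of the genes that were higher in MCF10A were other ERK-induced transcripts: 10 of the 12 on that list were higher and 1 was lower there, with a median log2 fold change of 0.70. HMGA2, a chromatin protein, rose from 4.37 ± 0.52 CPM (SD, n = 2) to 23.4 ± 0.042 CPM (5.30-fold, adjusted p = 9.81e-10, limma), and FOSL1, an AP-1 subunit, from 7.83 and 7.70 CPM to 25.7 and 27.2 CPM (3.38-fold, adjusted p = 1.77e-08). In DCIS.COM, 2 of the 12 were higher and 5 lower, and MAFF, a small MAF factor, fell 3.43-fold from 21.2 and 21.1 CPM to 6.44 and 5.82 CPM (adjusted p = 1.04e-08). HMGA2 did not overlap between the MCF10A groups but stood at 14.6 and 14.3 CPM against 14.7 and 14.3 CPM in DCIS.COM. The response was lower in DCIS.COM for 10 of the 12, where 20.3% of all genes were, led by HMGA2 (-2.40) and MAFF (-2.25). That count was 7 with plain library size. At that setting 63.7% of all passing genes had a higher response in DCIS.COM, against 43.5% in the main fit. Between the lines with pLOC-empty, 8 of the 12 were higher and 1 was lower in DCIS.COM, where 37.9% and 36% of all genes were. In DCIS.COM 6 of the 12 were more than 2-fold higher, where 15.6% of all genes were, and the list's median log2 fold change was 1.04. EGR1, an immediate early zinc finger factor, stood at 5.32 and 5.25 CPM there against 0.276 and 0.221 CPM in MCF10A, and PHLDA1, a pleckstrin homology-like protein, was 6.23-fold higher. With pLOC-MALINC1, 5 were higher and 7 lower in DCIS.COM, where 35.7% and 37.2% of all genes were. EGR1 and ETV1, another PEA3 factor, were higher there by 2.90 and 1.81 on the log2 scale. MAFF and CCND1 (cyclin D1) were lower, at -1.73 and -1.28.

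Other feedback regulators did not move together. In MCF10A, 2 of 12 were higher and 4 lower, where 21.5% and 18.1% of all genes were: DUSP7, an ERK phosphatase of the cytoplasm, rose from 29.7 and 28.3 CPM to 75.6 and 78.8 CPM (2.66-fold, adjusted p = 4.86e-10, limma), whereas DUSP1, an immediate early phosphatase of the nucleus, fell 2.07-fold from 86.6 and 81.9 CPM to 40.0 and 41.4 CPM (adjusted p = 1.63e-07). In DCIS.COM, 4 were higher and 3 lower, where 16.4% and 16.7% of all genes were. DUSP10, a phosphatase that prefers p38 and JNK, rose 2.03-fold there from 5.60 and 6.16 CPM to 12.1 and 12.0 CPM (adjusted p = 2.03e-07, limma). DUSP7 was also higher in DCIS.COM with pLOC-MALINC1, at 62.0 and 58.2 CPM against 31.3 and 30.8 CPM with pLOC-empty. In the interaction test, 4 of the 12 responded more highly in DCIS.COM than in MCF10A and 4 less, where 2162 and 2810 of 13842 genes did. DUSP1 and DUSP10 were among the former, by 1.47 and 1.44, the opposite direction to the members. Between the lines with pLOC-empty, 4 of the 12 were higher and 5 lower in DCIS.COM, where 37.9% and 36% of all genes were. LRIG1 and IL17RD, both membrane inhibitors of growth factor receptors, were 23.6-fold and 8.50-fold higher in DCIS.COM, and DUSP1 and DUSP10 were 22.2-fold and 7.87-fold lower. With pLOC-MALINC1, 5 were higher and 5 lower, where 35.7% and 37.2% of all genes were. LRIG1, IL17RD, DUSP1 and DUSP10 stood at 4.17, 2.44, -3.00 and -1.53 there on the log2 scale.

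Genes that carry the signal from receptors to ERK had smaller changes, in both directions, and their counts are to be read beside the shares of all genes, 21.5% higher and 18.1% lower in MCF10A and 16.4% and 16.7% in DCIS.COM. Of the 9 RAS GTPases and exchange factors, 1 was higher and 3 lower in MCF10A and 3 were lower in DCIS.COM, of the 12 RAF, MEK and ERK kinases and scaffolds 1 was higher and 2 lower in MCF10A and 2 higher and 1 lower in DCIS.COM, and no gene of either list reached a 2-fold change, whatever its p. The largest changes that passed were those of MRAS, a RAS-related GTPase (-0.85 in MCF10A), SOS2, an exchange factor (-0.52 in DCIS.COM), MAPK3, which encodes ERK1 (-0.41 in MCF10A), and PEA15, which holds ERK in the cytoplasm (0.33 in DCIS.COM). The calls for MRAS and MAPK3 were lost when the 4 MCF10A libraries were fitted alone, and that for PEA15 when the 4 DCIS.COM libraries were. Of the 8 adaptors, 2 were higher in MCF10A and 1 was lower in DCIS.COM, where SHC1 rose by 0.21 in the one line and fell by 0.52 in the other. Of the 9 RAS GTPase-activating proteins, 1 was higher in MCF10A, and 3 were higher and 2 lower in DCIS.COM. With plain library size the counts in DCIS.COM were 1 higher and 1 lower for the RAS list and 2 higher and 1 lower for the adaptors. At that setting 73.6% of all passing genes in DCIS.COM were higher, against 49.5% in the main fit. RASA1 had 0.57 in DCIS.COM and 0.15 in MCF10A, and the latter no longer passed under 11 alternatives, among them quantile normalization, plain library size and library sizes without RN7SL1 and RN7SL2.

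Between the lines with pLOC-empty, RASGRP1, an exchange factor for RAS, stood at 29.5 and 30.7 CPM in DCIS.COM and at 0.276 and 0.221 CPM in MCF10A, and RASAL1, a RAS GTPase-activating protein, was 4.49-fold higher in DCIS.COM. MRAS was 2.32-fold higher. RRAS, PEA15, GAB1, RASA3 and MAPK3 were 3.84-fold, 2.97-fold, 2.89-fold, 2.56-fold and 2.04-fold lower there. With pLOC-MALINC1, RASGRP1, RASAL1 and MRAS were higher in DCIS.COM by 7.02, 2.45 and 2.04 on the log2 scale, and RASA3, RRAS, GAB2, GAB1, RRAS2, MAP2K1 and LAMTOR3 were lower, between -2.52 and -1.03. The response to MALINC1 differed between the lines by 0.83 for MRAS, -1.16 for RASA3, -0.74 for SHC1 and 0.56 for PEA15. Over the 62 genes, 24 (38.7%) were higher and 25 (40.3%) lower in DCIS.COM with pLOC-empty, where 37.9% and 36% of all genes were, and 24 (38.7%) were higher and 32 (51.6%) lower with pLOC-MALINC1, where 35.7% and 37.2% were. With pLOC-MALINC1 the counts were 27 and 27 with plain library size. They were 28 and 28 with library sizes that left out RN7SL1 and RN7SL2. Of all passing genes, 63.3% and 61.8% were higher at these 2 settings, against 49.0% in the main fit. With pLOC-empty the counts were 29 and 23 with library sizes that left out RN7SL1 and RN7SL2. There 57.8% of all passing genes were higher, against 51.2% in the main fit.

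**Figure D4:**
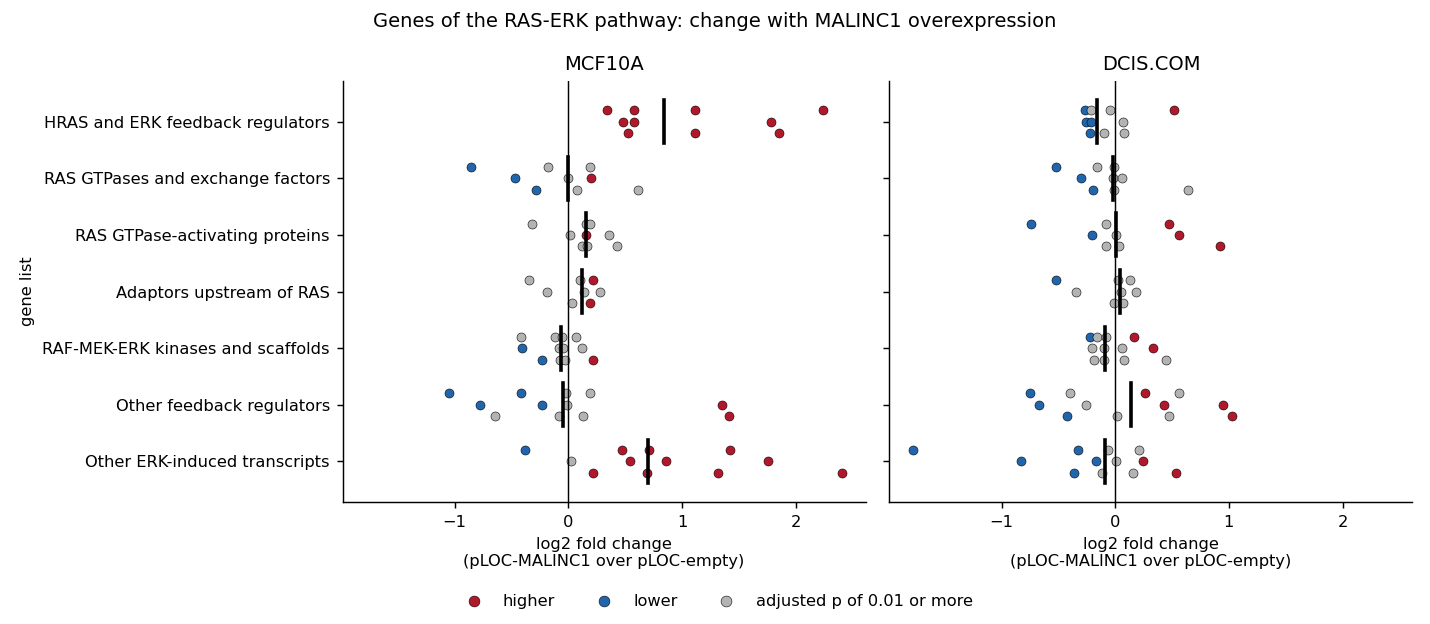
Log2 fold change (pLOC-MALINC1 over pLOC-empty) in MCF10A and DCIS.COM of the 10 members and of 62 other pathway genes by list, with red and blue points for genes higher and lower at an adjusted p under 0.01 (limma), grey points for the others and a black line at each list's median. In MCF10A all 10 members and 10 of 12 other ERK-induced transcripts are red, and the remaining lists lie around 0.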

How the data were processed

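RNA was sequenced as 76 nt paired-end reads from ScriptSeq v2 libraries. The authors mapped reads to hg19 with Rsubread and counted them per gene with featureCounts, and deposited 1 table of 13842 genes in 8 libraries as log2 CPM values. The strand setting is not given in the sources used here. The authors made these log2 values with edgeR, per the labels. To recover reads, each library's lowest value was subtracted on the linear scale and the rest divided by a step fitted per library. This gave whole reads for 100% of values (tolerance 0.1 read). A prior count of 2 was taken for the log2 scale. Of the rows, 346 name no gene symbol and hold at most 0.358% of a library's reads.

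Group means were fitted to the deposited log2 values of all 8 libraries with limma 3.58.1 (R 4.3.3), with a mean-variance trend and 4 residual degrees of freedom. A filter of 0.5 CPM in 2 libraries kept all genes. P-values were adjusted by Benjamini-Hochberg over 13842 genes. A gene passed at an adjusted p under 0.01, and changes over 2-fold were counted among those. The contrasts were pLOC-MALINC1 against pLOC-empty in each line, the difference between these 2 (interaction), and DCIS.COM against MCF10A with each vector. The comparisons share libraries. Depth was 20604377 to 37550457 reads on genes. Replicates of a group differed by more than counting noise in a chi-square test of their recovered reads. It gave 20.4 for each degree of freedom in DCIS.COM pLOC-MALINC1 and 3.27 to 6.27 in the other groups. The limma fit shared 1 spread per gene across the 4 groups. CPM per kb divides by the union of exons in GENCODE annotation on GRCh37. The fit was tested on simulated data.

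The members are all named. From each pathway list the text names, per comparison, up to 2 genes with the largest rise and up to 2 with the largest fall over 2-fold, and otherwise the largest change that passed, at 5 CPM or more in the higher group. Genes outside the members with a similar profile were taken by distance, and some of them are not reported here. The members, lists and tests were chosen with earlier results of these data known. Alternatives covered the pseudocount, the filter, the scaling, the libraries fitted, a replicate block, voom weights, and each library left out.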

Additional observations from a re-analysis of the deposited data

Results flagged for a closer look

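The change with MALINC1 differed between the lines for all 10 members in the interaction test of the limma fit (adjusted p under 0.01). The difference in log2 fold change, DCIS.COM minus MCF10A, was -2.50 for DUSP6, -1.82 for SPRY1, -1.77 for SPRY4, -1.33 for DUSP5, -0.73 for ETV5, -0.70 for HRAS, -0.68 for DUSP4, -0.60 for both SPRED1 and SPRY2, and -0.51 for SPRED2. The line, its medium and its level of MALINC1 cannot be told apart here.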

How the results depend on the processing

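Of 950 values of members under an alternative, 926 kept their direction and their side of the threshold, 18 no longer passed, 4 newly passed and 2 changed sign. These values include the fits without a filter and with recomputed TMM factors, which could not differ from the main fit. They leave out the block with the numbers as labelled in MCF10A alone, where 3 of 10 members passed. Both sign changes were in DCIS.COM with plain library size, an alternative chosen after seeing the data: DUSP4 (0.014) and SPRY1 (0.074), neither of which passed in either fit. There the count of passing members went from 5 to 1. With 1 library left out it ranged from 3 to 5, the lowest without pLOC-empty replicate 2 or pLOC-MALINC1 replicate 1. With the 4 libraries of a comparison fitted alone, 9 of 10 passed in MCF10A and 4 in DCIS.COM, and the interaction of SPRED2 was lost with plain library size (adjusted p = 0.0110, limma), where 9 of 10 passed. DUSP5 newly passed between the lines with pLOC-MALINC1 in 4 alternatives.

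The share of passing genes that were higher moved from 49.5% to 73.6% in DCIS.COM with plain library size, from 43.5% to 63.7% for the interaction and from 49.0% to 63.3% between the lines with pLOC-MALINC1, with shifts of the median of all genes of 0.12, 0.13 and 0.20. With library sizes that left out RN7SL1 and RN7SL2 it was 55.4% for the interaction and 61.8% between the lines with pLOC-MALINC1. Fitting the 4 libraries of a comparison alone left 3101 of 5485 passing genes in number in MCF10A and 2559 of 4592 in DCIS.COM.

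The correlation of same-numbered replicate deviations ran from -0.16, between the MCF10A groups, to 0.11, between the DCIS.COM groups, over 10742 genes. These values had no common direction and do not settle whether libraries were paired within a line. With a replicate block the passing members numbered 10 in MCF10A, 5 in DCIS.COM, 10 for the interaction, and 10 and 9 between the lines. In MCF10A alone, a block with the numbers as labelled gave 555 genes and 3 members, and with the pairing crossed, a choice added after seeing the data, 1962 genes and 7 members. DESeq2 and edgeR fits, planned for counts, were not run because the table holds log2 values; voom weights on the recovered reads were added instead. Recomputed TMM factors were those already in the table. The members with fewest reads, SPRY1 and SPRY4 in MCF10A pLOC-empty, are limited by counting.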
